A study of Mus musculus with 7 samples.

Results

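The cytochrome P450 genes of brown adipose tissue, the fat that burns fuel for heat, were compared between NOD mice given CB-100 and NOD mice given a sham injection. The family was taken as the protein-coding genes of the count table whose symbol begins with Cyp followed by a digit, Cyp51 excepted. It held 99 of 55487 genes, in 16 families and 39 subfamilies, and family Cyp2 alone had 49 members. In the CB-100 tissue the transcripts of Cyp2b10, a drug-metabolizing enzyme, and of Cyp4a14, a fatty acid hydroxylase, were lower, and no P450 gene passed the test as higher. Cyp4a14 had at most 3 counts in any CB-100 library and entered the test through its sham libraries alone.

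P450 enzymes are heme proteins of the endoplasmic reticulum and mitochondria that insert an oxygen atom into drugs, pollutants, fatty acids, sterols, bile acids, steroids and retinoids. They take their electrons from P450 oxidoreductase, cytochrome b5 or ferredoxins. Families Cyp1, Cyp2 and Cyp3 are best known from liver, where nuclear receptors and the aryl hydrocarbon receptor raise their transcription when foreign compounds arrive, while family Cyp4 oxidizes fatty acids and many of the remaining families act on sterols, steroids and vitamins.

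All mice were NOD/ShiLtJ, a strain prone to autoimmune diabetes, and their blood glucose was 190 to 230 mg/dL at entry. The first group (4 libraries) received CB-100, the part above 100 kDa of buffer that brown adipocytes had conditioned, under the skin at 1.5 mg per kg for 7 days. The other group (3 libraries) is labelled as sham treated with KRBH buffer, and its labels carry no schedule of its own. Brown fat was collected 2 to 8 weeks after injection, with no week, age or sex given per mouse. Each CB-100 title also bears the code nd and each sham title the code d, not spelled out in the labels, so what these mark and the injection cannot be told apart. Transcripts of Xist and Y-linked genes placed replicate 3 of each group as male and the other 5 libraries as female.

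Libraries held 10815101 to 28528471 counts, and mitochondrially encoded genes took 22.3% to 36.3% of them in CB-100 and 14.3% to 22.8% in sham. The summed level of 12 brown adipocyte markers was 4405 to 8260 CPM (counts scaled to a common library total) in CB-100 and 5112 to 8471 CPM in sham. Of the 12, 10 overlapped between the groups, Adipoq lay below sham in every CB-100 library (359 to 375 CPM in CB-100, 484 to 808 CPM in sham) and Dio2 above it (43.6 to 377 CPM in CB-100, 1.03 to 27.8 CPM in sham). Liver markers were near 0, since Alb and Ttr were at 0 in every library and 8 hepatocyte markers summed to 0.639 to 2.78 CPM in CB-100 and 0.638 to 1.38 CPM in sham. Of 6 markers of lung epithelium, Scgb1a1, Scgb3a2 and Sftpa1 were at 0, and the list summed to at most 0.365 CPM in CB-100, against 0.188 CPM in sham. The 12 skeletal muscle markers summed to 316 to 2373 CPM in CB-100 and 865 to 1945 CPM in sham. The 9 markers of stroma and preadipocytes summed to 796 to 1623 CPM in CB-100 and 358 to 762 CPM in sham. Col1a1 and Col3a1 led these sums, and without them the other 7 summed to 167 to 256 CPM in CB-100 and 190.1 to 279 CPM in sham. Of the 7, Dcn lay below sham in every CB-100 library (48.0 to 78.7 CPM in CB-100, 94.9 to 116 CPM in sham). The other 6 overlapped between the groups, with log2 changes above 0, from 0.28 (Lum) to 0.57 (Pi16). None of the 9 passed the test. The 5 Schwann cell markers summed to 110 to 113 CPM in CB-100 and 65.6 to 78.5 CPM in sham, and without Pmp22 to 68.5 to 82.2 CPM in CB-100 and 47.2 to 56.4 CPM in sham. Pmp22 passed as higher in CB-100 (log2 change 0.80, edgeR quasi-likelihood adjusted p = 0.0419), as did 1.42% of all genes tested. The other 4 did not pass, though Mbp lay above sham in every CB-100 library. The marker genes named here were chosen after their values were seen. Their part in the P450 differences was not tested. In whole tissue, fewer cells of a type and less RNA per cell cannot be told apart.

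The promoters of Cyp2b10, Cyp2f2 and Cyp1a1 are shown because Cyp2b10 and Cyp2f2 had the lowest log2 changes of the tested Cyp2 genes and Cyp1a1 the most counts of the untested members. They come from RefSeq (GRCm38.p6), whose table held a promoter for 76 of the 99 members. Each window runs from 250 bases before to 50 bases after the RefSeq start, 5′ to 3′ on the gene's strand, and capitals mark motif matches on either strand. The motifs searched were, on both strands, GCGTG (core of the aryl hydrocarbon receptor site), AGGTCA (nuclear receptor half-site), TTGCNNAA (C/EBP type), AGAACA (glucocorticoid receptor half-site) and TATAAA.
Cyp2b10 (chr7:25897408-25897707, + strand): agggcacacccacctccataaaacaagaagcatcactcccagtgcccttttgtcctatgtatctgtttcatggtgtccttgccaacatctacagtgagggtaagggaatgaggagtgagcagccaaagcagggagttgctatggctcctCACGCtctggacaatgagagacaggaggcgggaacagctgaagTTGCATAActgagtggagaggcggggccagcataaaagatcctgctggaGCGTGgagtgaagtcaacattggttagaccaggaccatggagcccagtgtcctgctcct
Cyp2f2 (chr7:27119705-27120004, + strand): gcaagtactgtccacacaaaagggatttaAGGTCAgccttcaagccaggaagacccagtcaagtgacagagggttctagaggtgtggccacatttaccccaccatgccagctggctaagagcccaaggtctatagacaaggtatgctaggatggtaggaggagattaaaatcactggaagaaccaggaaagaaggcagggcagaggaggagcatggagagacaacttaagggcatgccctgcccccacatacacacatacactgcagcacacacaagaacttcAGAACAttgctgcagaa
Cyp1a1 (chr9:57697363-57697662, + strand): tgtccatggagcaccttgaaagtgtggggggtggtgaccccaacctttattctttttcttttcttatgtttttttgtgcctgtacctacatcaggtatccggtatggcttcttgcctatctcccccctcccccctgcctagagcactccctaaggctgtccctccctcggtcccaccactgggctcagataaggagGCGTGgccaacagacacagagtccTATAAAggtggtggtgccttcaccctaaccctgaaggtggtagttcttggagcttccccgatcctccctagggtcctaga

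Counting from the RefSeq start, the Cyp2b10 window held GCGTG at -9, its reverse complement CACGC at -101, and TTGCATAA at -58. The Cyp2f2 window held AGGTCA at -221 and AGAACA at 34 bases into the transcript. The Cyp1a1 window held GCGTG at -54 and TATAAA at -30. The GENCODE genes start elsewhere, at 25897620 for Cyp2b10, 27119909 for Cyp2f2 and 57687928 for Cyp1a1. Each lies before the RefSeq start, so sites with a minus sign can lie inside the GENCODE gene. Such matches are common. Of 32851 promoter windows of the same length, 32.4% held GCGTG, 16.3% AGGTCA, 10.8% TTGCNNAA, 19.0% AGAACA and 13.6% TATAAA. No motif was shared by all 3 windows.

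Few P450 genes reached testable levels. In brown fat 40 of the 99 had a count of 0 in all 7 libraries, 39 had some counts but too few to be tested, and 20 passed the filter on low counts (about 10 counts at the median depth in at least 3 libraries). The 20 were 7 members of family Cyp2, 7 of family Cyp4 and 6 of other families. Family Cyp3, which includes the main drug-oxidizing enzymes of liver, had 9 members, of which 7 were at 0 and 2 had a few counts. Of 15 Cyp2c genes, 13 were at 0 and none was tested. A count of 0 in a library allows up to 3 counts of its total, for counting error only.

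**Figure D1:**
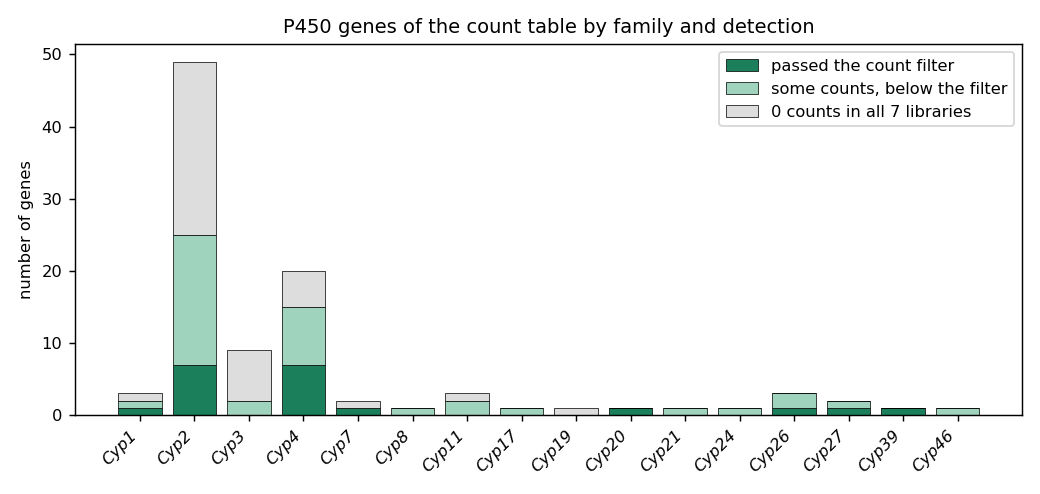
Number of P450 genes (vertical axis) in each of the 16 families (horizontal axis), split into genes that passed the count filter, genes with some counts below it and genes at 0 in all 7 libraries. Family Cyp2 had 7 of 49 members past the filter and family Cyp4 7 of 20, while no member of Cyp3 passed.

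Of the 20 tested genes, 2 were lower in CB-100, none was higher and 18 did not pass (edgeR quasi-likelihood test, Benjamini-Hochberg adjusted p under 0.05). That is 10% of the tested members, against 3.7% of all 16823 genes tested, of which 2.28% were lower and 1.42% higher. At an unadjusted p under 0.05, 6 members were lower and 3 higher, against 12.2% lower and 11.7% higher over all genes. Estimates were below 0 for 11 members and above 0 for 9, with a median log2 change of -0.30, against 0.03 over all genes tested. CB-100 and sham values did not overlap for 9 of the 20 (5 with CB-100 below, 4 with CB-100 above), against 23.3% of all genes (12.2% and 11.1%). Cyp4a14 passed the filter through its sham libraries alone, so these counts describe the tested members and do not extend to the family. DESeq2 and limma voom each called 1 member higher, Cyp26b1, where DESeq2 called 11.7% of all genes (5.47% higher) and limma voom 7.21% (2.88% higher).

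**Figure D2:**
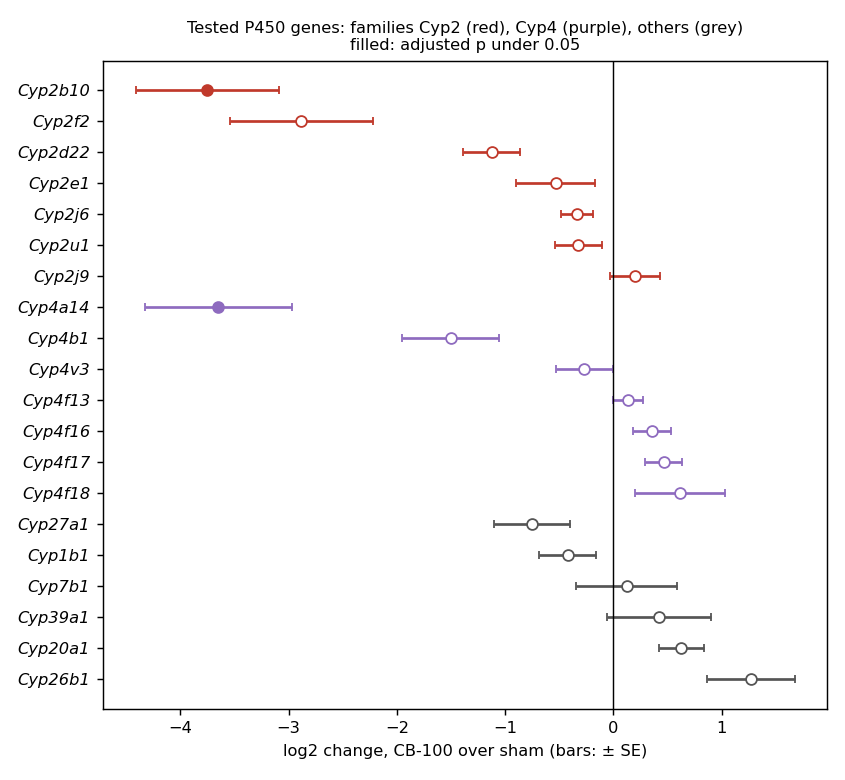
Estimated log2 change, CB-100 over sham, with its SE (horizontal axis) for the 20 tested P450 genes (vertical axis), coloured by family. The filled points are Cyp2b10 at -3.75 and Cyp4a14 at -3.65, and 6 of the 7 Cyp2 genes lie below 0.

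Cyp2b10 is the phenobarbital-inducible P450 of mouse liver, a classic target of the constitutive androstane receptor (Nr1i3). The gene spans chr7:25897620-25926624 on the + strand. It stood at 6.08, 3.20, 13.7 and 8.61 CPM in the CB-100 libraries 1 to 4, against 183, 27.8 and 111 CPM in the sham libraries 1 to 3. Every CB-100 library lay below every sham library, although the sham libraries spread widely and sham replicate 2 was nearest to the CB-100 range. The values rest on 85, 35, 191 and 185 counts in CB-100 and 3515, 404 and 2356 counts in sham, all whole numbers. The means were 7.90 ± 4.47 CPM in CB-100 (SD, n = 4) and 107 ± 77.7 CPM in sham (SD, n = 3), a log2 change of -3.75 (SE 0.66, edgeR quasi-likelihood adjusted p = 0.0344), or 13.5-fold lower. Within each sex the order was the same, with 13.7 CPM in the CB-100 male against 111 CPM in the sham male, and 3.20 to 8.61 CPM in the CB-100 females against 27.8 and 183 CPM in the sham females. Sham replicate 2 also had the highest Ucp1, the uncoupling protein of thermogenesis, of the sham libraries. Ucp1 stood at 2237, 450, 1098 and 1824 CPM in CB-100 and at 140, 875 and 46.1 CPM in sham. The groups overlapped, and Ucp1 did not pass (log2 change 1.99, edgeR adjusted p = 0.262). Within CB-100, replicate 2 had both the lowest Ucp1 and the lowest Cyp2b10. A link between Ucp1 and Cyp2b10 was not tested.

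The Cyp2b10 call did not hold with most single libraries left out, where calls over all genes also fell, from 622 to between 8 and 610. It was lost without CB-100 replicate 1 (edgeR adjusted p = 0.0688), 2 (0.0671) or 4 (0.0672) and without sham replicate 1 (0.091) or 3 (0.128), while the log2 change stayed between -4.20 and -3.13 when any 1 library was left out. Without CB-100 replicate 3 it was -4.15 (adjusted p = 0.0438), and without sham replicate 2 it was -4.20 (adjusted p = 0.0194). It was also lost with a skeletal muscle score as covariate (adjusted p = 0.115), in females only (0.168) and with no filter on low counts (0.0996), each time with a log2 change of -3.69 or below.

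Cyp2b10 lies in a run of 13 Cyp2 genes on chromosome 7, from 25802475 to 27158668, each within 1 Mb of the next. Of these, Cyp2b10 and Cyp2f2 were tested, 7 had some counts and 4 were at 0. The other 4 Cyp2b genes (Cyp2b9, Cyp2b13, Cyp2b19 and Cyp2b23) together had 0, 5, 0 and 2 counts in the CB-100 libraries and 7.16, 0 and 2 in the sham libraries, so the difference in Cyp2b10 had no counterpart that could be detected at this depth in its closest paralogs. Cyp2s1, upstream of Cyp2b10, had 24 counts in all CB-100 libraries, 15 of them in replicate 4, and 10 in all sham libraries. It overlaps exons of the antisense gene Gm26707.

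Cyp2f2, near the far end of the same run, activates naphthalene in the club cells of mouse lung. It stood at 0.572, 0.548, 0.863 and 1.07 CPM in CB-100, against 6.77, 0.962 and 9.59 CPM in sham. Sham replicates 1 and 3 were far above all CB-100 libraries, but sham replicate 2 lay among them. The log2 change was -2.88 (SE 0.66, edgeR adjusted p = 0.0511), and without sham replicate 2 it was -3.38 (adjusted p = 0.0119). Without any other single library it did not pass (log2 change of -3.11 to -2.32, adjusted p of 0.077 to 0.178), nor in females only (adjusted p = 0.249). DESeq2 gave an adjusted p of 0.000437 and limma voom 0.127 over all libraries. Exons of the antisense gene Gm15883 overlap Cyp2f2, and without stated strand-specific counting their reads cannot be told apart.

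Cyp2d22 belongs to the subfamily of the human drug-metabolizing enzyme CYP2D6. It stood at 45.1, 26.5, 37.1 and 47.0 CPM in CB-100, against 120, 69.4 and 65.2 CPM in sham. The groups did not overlap, and sham replicate 1 was the highest library. The log2 change was -1.12 (SE 0.26, edgeR adjusted p = 0.0512) and did not pass, while DESeq2 gave an adjusted p of 0.00372 and limma voom 0.0326. None of the 7 fits with 1 library left out called it (log2 change of -1.29 to -0.79, edgeR adjusted p of 0.0571 to 0.139). Of all 18 alternatives, 3 called it, and the adjusted p reached 0.207.

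**Figure D3:**
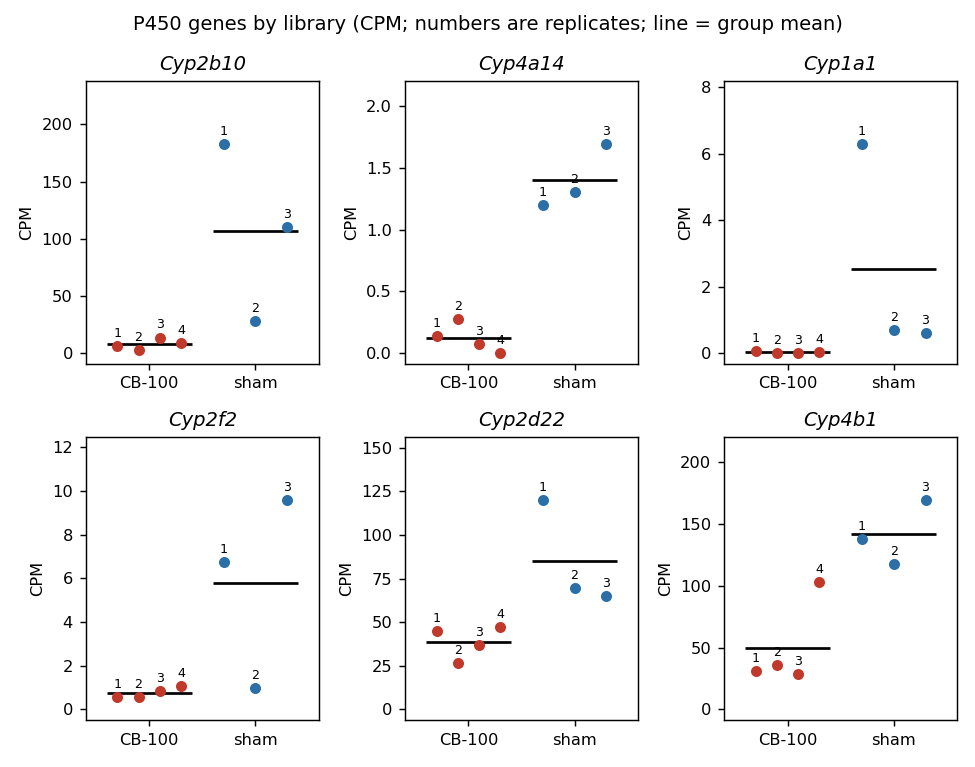
CPM (vertical axis, own scale per panel) of 6 P450 genes in each library, CB-100 left and sham right, with the replicate number above each point and a line at the group mean. CB-100 points lie below all sham points for each gene except Cyp2f2, whose sham replicate 2 (0.962 CPM) lies under CB-100 replicate 4 (1.07 CPM).

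The other tested Cyp2 genes showed no difference that passed the test. Cyp2e1, which oxidizes ethanol and other small molecules, stood at 277, 210, 130 and 141 CPM in CB-100, against 167, 233 and 424 CPM in sham. The groups overlapped (log2 change -0.53, SE 0.36, edgeR adjusted p = 0.402), and its counts were not whole in any library, as where reads are divided between features. Cyp2j6 and Cyp2j9 belong to a subfamily that forms epoxides of arachidonic acid. Cyp2j6 had 21.0, 19.0, 20.8 and 21.7 CPM in CB-100, against 23.4, 23.6 and 31.2 CPM in sham, a small difference without overlap (log2 change -0.34, SE 0.15, edgeR adjusted p = 0.205). Cyp2j9 averaged 4.82 ± 1.03 CPM in CB-100, against 4.21 ± 0.359 CPM in sham (log2 change 0.20, adjusted p = 0.639). Cyp2u1, a fatty acid hydroxylase, averaged 68.9 ± 16.0 CPM in CB-100, against 86.2 ± 17.9 CPM in sham (log2 change -0.32, adjusted p = 0.386), again with counts that were not whole and an antisense neighbour, 4930534D22Rik.

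In family Cyp4, Cyp4a14 was the second gene that was lower in CB-100. It oxidizes the terminal carbon of fatty acids and is a target of PPAR alpha in mouse liver. Cyp4a14 had 2, 3, 1 and 0 counts in CB-100 and 23, 19 and 36 counts in sham. These are 0.143, 0.274, 0.0719 and 0 CPM in CB-100, against 1.20, 1.31 and 1.69 CPM in sham, with the sham libraries close together and all above CB-100. The log2 change was -3.65 (SE 0.68, edgeR adjusted p = 0.0342). The pooled counts, 6 in CB-100 and 78 in sham, gave a depth-scaled ratio of 0.0702, with an exact 95% interval of 0.025 to 0.16 for counting error only. Cyp4a14 passed the filter through its sham libraries alone. Its call was kept without CB-100 replicate 4 (log2 change -3.10, adjusted p = 0.0316) and lost when any other single library was left out (log2 change of -4.34 to -3.47, adjusted p of 0.057 to 0.138), with a muscle score (0.128) or sex (0.0527) as covariate, and in females only (0.217).

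The neighbours of Cyp4a14 on chromosome 4, a run of 10 genes from 115106323 to 115647723, included Cyp4a10 and Cyp4a31, members of the same subfamily that were too low to be tested. Both were chosen after their values were seen. Cyp4a10 had 2, 4, 0 and 6 counts in CB-100 and 34.87, 6 and 21 in sham, a pooled ratio of 0.177 (exact 95% interval 0.0866 to 0.331). CB-100 replicate 4 and sham replicate 2 both had 6 counts. Cyp4a31 had 0 counts in all CB-100 libraries and 4, 1 and 4 in sham, and the exact 95% upper limit of its depth-scaled ratio was 0.462, for counting error only. All 8 Cyp4a genes together had 4, 7, 3 and 6 counts in CB-100 and 64, 27 and 62 counts in sham, mostly from Cyp4a14 and Cyp4a10. Reads of such near copies can be divided between them, and the Cyp4a10 count of sham replicate 1 is not whole.

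Cyp4b1, at the end of the run, oxidizes fatty acids and some lung toxicants. It stood at 31.2, 36.1, 28.5 and 103 CPM in CB-100, against 138, 118 and 169 CPM in sham. All CB-100 libraries were below sham, and CB-100 replicate 4 stood near the sham range, apart from the other 3. The log2 change was -1.50 (SE 0.45, edgeR adjusted p = 0.0941) over all libraries and -2.15 (adjusted p = 0.0107) without CB-100 replicate 4. Of the 7 fits with 1 library left out, only 1 called it. Over these fits the log2 change ran to -1.31 and the adjusted p to 0.256. Of all 18 alternatives, 3 called it, and the adjusted p reached 0.331. Over all libraries DESeq2 gave an adjusted p of 0.00873 and limma voom 0.0151. Its counts were not whole in 5 libraries.

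The Cyp4f genes, a subfamily known for the breakdown of leukotriene B4, lay on the other side of 0, though none passed. Cyp4f17 averaged 22.1 ± 3.66 CPM in CB-100, against 16.0 ± 1.79 CPM in sham (log2 change 0.46, edgeR adjusted p = 0.137), and Cyp4f16 12.5 ± 0.978 CPM in CB-100, against 9.72 ± 1.80 CPM in sham (0.36, adjusted p = 0.256). For both, every CB-100 library was above every sham library, and both had counts that were not whole in 6 libraries. Cyp4f13 averaged 25.2 ± 2.84 CPM in CB-100, against 22.9 ± 1.58 CPM in sham (0.14, adjusted p = 0.587). Cyp4f18, at 0.907 ± 0.273 CPM in CB-100, against 0.594 ± 0.112 CPM in sham, gave a log2 change of 0.61 (adjusted p = 0.389) and overlaps the antisense gene Zfp961. Cyp4v3, the mouse counterpart of a human fatty acid hydroxylase whose loss causes a retinal dystrophy, averaged 28.5 ± 6.36 CPM in CB-100, against 34.4 ± 12.3 CPM in sham (-0.27, adjusted p = 0.561). Its exons overlap Gm45753 on the same strand, and its counts were not whole in 5 libraries.

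Cyp1a1, the best known target of the aryl hydrocarbon receptor, was just outside the filter and was chosen after its values were seen. It had 1, 0, 0 and 1 counts in CB-100 and 121, 10 and 13 counts in sham. No CB-100 library had more than 1 count, and sham replicate 1 held most of the counts. The pooled counts of 2 in CB-100 and 144 in sham gave a depth-scaled ratio of 0.0127 (exact 95% interval 0.00152 to 0.0466, counting error only). With no filter on low counts the edgeR log2 change was -6.01 (adjusted p = 0.0474), and a fitted change of a gene so close to 0 depends on the prior count. Where leaving out a library let Cyp1a1 past the filter, it passed through its sham libraries alone. Its relative Cyp1b1, which acts on estrogens and retinoids, averaged 11.9 ± 2.89 CPM in CB-100, against 16.0 ± 4.80 CPM in sham, and the groups overlapped (-0.42, adjusted p = 0.351).

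Among the sterol and retinoid enzymes none passed the test. Cyp26b1, which inactivates retinoic acid, stood at 23.2, 9.77, 14.7 and 8.61 CPM in CB-100, against 8.38, 5.43 and 3.71 CPM in sham. Every CB-100 library was above every sham library, but CB-100 replicate 4 and sham replicate 1 nearly met. The log2 change was 1.27 (SE 0.40, edgeR adjusted p = 0.106), while DESeq2 gave an adjusted p of 0.0239 and limma voom 0.046. None of the 7 fits with 1 library left out called it (log2 change of 0.92 to 1.62, edgeR adjusted p of 0.0786 to 0.296). Cyp27a1, the mitochondrial sterol hydroxylase of bile acid synthesis, averaged 43.0 ± 18.4 CPM in CB-100, against 72.2 ± 22.1 CPM in sham, with overlapping libraries (-0.75, SE 0.35, adjusted p = 0.233). Cyp20a1, an enzyme with no settled substrate, averaged 11.7 ± 2.66 CPM in CB-100, against 7.56 ± 0.703 CPM in sham without overlap (0.63, SE 0.21, adjusted p = 0.114). Cyp7b1 and Cyp39a1, which hydroxylate oxysterols, were below 4 CPM in every library, with log2 changes of 0.12 (adjusted p = 0.898) and 0.42 (adjusted p = 0.629).

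Levels of different genes were compared as CPM per kb of merged exons. In CB-100 the highest P450 gene was Cyp2e1 (87.9 ± 31.6 CPM per kb), followed by Cyp4b1 (22.0 ± 15.9), Cyp27a1 (19.8 ± 8.46), Cyp2u1 (13.1 ± 3.05) and Cyp2d22 (9.96 ± 2.39). In sham the order was Cyp2e1 (127 ± 61.9 CPM per kb), Cyp4b1 (62.8 ± 11.5), Cyp2b10 (50.7 ± 36.8), Cyp27a1 (33.2 ± 10.2), Cyp2d22 (21.7 ± 7.81) and Cyp2u1 (16.4 ± 3.41). Cyp2b10 was 12th of 20 in CB-100 (3.74 ± 2.12 CPM per kb) and 3rd in sham. Cyp2e1 stood clear of the next gene in both groups, and neighbouring ranges after it overlapped down to Cyp4f17 in CB-100 and down to Cyp2u1 in sham. Cyp2b10 made up 0.777% to 3.63% of the summed P450 level per kb in CB-100 and 4.54% to 25.8% in sham, while Cyp2e1 made up 33.2% to 54.9% in CB-100 and 23.0% to 44.0% in sham.

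**Figure D4:**
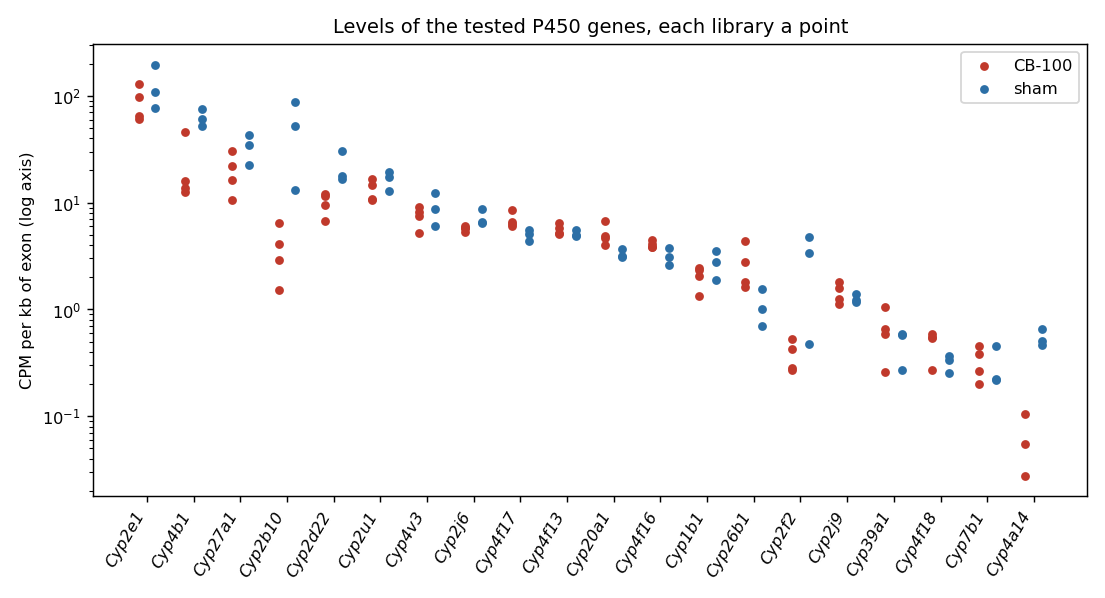
Level of the 20 tested P450 genes in CPM per kb of exon (vertical log axis), each library a point, CB-100 left of sham for each gene, genes ordered by their mean over all libraries. Cyp2e1 is highest in both groups, Cyp2b10 averages 3.74 in CB-100 and 50.7 in sham, and the value of 0 for Cyp4a14 in CB-100 replicate 4 is not drawn.

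Summed over all 99 genes, P450 transcripts made up 642, 523, 521 and 547 CPM in the CB-100 libraries and 879, 788 and 1110 CPM in the sham libraries. Every CB-100 sum was below every sham sum. Without Cyp2b10 the sums were 508 to 636 CPM in CB-100 and 696 to 999 CPM in sham, so the gap was not Cyp2b10 alone. Family Cyp2 summed to 333 ± 67.5 CPM in CB-100, against 590 ± 138 CPM in sham, and family Cyp4 to 140 ± 39.0 CPM in CB-100, against 228 ± 22.7 CPM in sham. These sums are led by Cyp2e1 and Cyp4b1 and carry no test.

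Electron transfer partners of P450 enzymes were taken broadly, with Pgrmc1, Pgrmc2 and Fdx2 in the list. Of its 11 tested genes, Cyb5a was lower, Cyb5r1 was higher and 9 did not pass, against 3.7% of all genes called. Their median log2 change was 0.01. Cyb5a, microsomal cytochrome b5, averaged 52.4 ± 5.82 CPM in CB-100, against 117 ± 38.2 CPM in sham (-1.16, SE 0.23, edgeR adjusted p = 0.0351). Cyb5r1, a cytochrome b5 reductase, averaged 32.0 ± 7.19 CPM in CB-100, against 17.9 ± 1.80 CPM in sham (0.84, SE 0.19, adjusted p = 0.0462). Por, the reductase that serves all microsomal P450 enzymes, averaged 215 ± 26.3 CPM in CB-100, against 213 ± 43.6 CPM in sham (0.01, adjusted p = 0.973).

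None of 18 tested transcription factors of P450 genes passed in edgeR, DESeq2 or limma voom, of 25 listed. At an unadjusted edgeR p under 0.05, 3 were higher and 1 lower, against 11.7% and 12.2% of all genes, and the median log2 change was -0.06. The smallest p-values belonged to Nr1h3, the liver X receptor alpha (0.60, edgeR adjusted p = 0.115), and Arnt, the partner of the aryl hydrocarbon receptor (-0.41, adjusted p = 0.115). Nr1i3, the receptor known to drive Cyp2b10 in liver, was low, at 0.912 ± 0.342 CPM in CB-100, against 1.25 ± 0.332 CPM in sham (-0.39, adjusted p = 0.579), had counts that were not whole in any library, and overlaps exons of the antisense gene Tomm40l. Ahr gave a log2 change of -0.27 (adjusted p = 0.503).

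Of 12 genes of heme synthesis and breakdown, Urod and Blvrb were lower, Uros was higher and 9 did not pass, with a median of -0.32. Over all genes 2.28% were lower and 1.42% higher. Urod, a decarboxylase of the heme pathway, averaged 21.2 ± 3.61 CPM in CB-100, against 38.9 ± 3.48 CPM in sham (-0.87, SE 0.16, edgeR adjusted p = 0.0342). Blvrb, a biliverdin reductase, averaged 14.8 ± 3.38 CPM in CB-100, against 29.6 ± 4.59 CPM in sham (-0.996, SE 0.20, adjusted p = 0.0366). Uros, the synthase one step before Urod, averaged 11.4 ± 1.76 CPM in CB-100, against 5.91 ± 1.20 CPM in sham (0.95, SE 0.21, adjusted p = 0.0461). Alas1, the rate-limiting enzyme of the pathway outside red blood cells, averaged 175 ± 53.4 CPM in CB-100, against 301 ± 87.4 CPM in sham and did not pass (-0.79, adjusted p = 0.138).

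Of 30 tested genes for other enzymes and transporters of foreign compounds (39 listed), Gstp1 and Gstm1 were lower, none was higher and 28 did not pass, against 2.28% of all genes lower and 1.42% higher. Estimates were below 0 for 27 of the 30, against 47.3% of all genes tested, and their median was -0.56. At an unadjusted p under 0.05, 12 were lower and 0 higher, against 12.2% and 11.7% of all genes. Ugt1a1, Ugt1a6a, Ugt1a7c and Ugt1a9 share exons on the same strand and had counts that were not whole in any library. Their reads may be divided between them, so they are not separate observations. All lie below 0, and Ugt1a6a and Ugt1a7c are both among the 12. DESeq2 called 5 lower, against 6.22% of all genes, and limma voom 4, against 4.33%. Gstp1, a glutathione transferase, averaged 27.7 ± 2.12 CPM in CB-100, against 56.5 ± 11.4 CPM in sham (-1.03, SE 0.16, edgeR adjusted p = 0.0225), with counts that were not whole in any library. Gstm1, of the mu class, averaged 77.6 ± 8.81 CPM in CB-100, against 126 ± 6.44 CPM in sham (-0.70, SE 0.14, adjusted p = 0.0367). The 3 P450 enzymes outside the naming rule (Ptgis, Tbxas1 and Cyp51) had estimates above 0, and none passed in edgeR, DESeq2 or limma voom, with 1 higher at an unadjusted p under 0.05 (11.7% of all genes).

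The calls in these lists also changed when single libraries were left out. Calls over all genes then fell from 622 to between 8 and 610, so a call could be lost without a smaller change. Blvrb was at -1.04 without CB-100 replicate 1 (edgeR adjusted p = 0.067), against -0.996 over all libraries. Without CB-100 replicate 4 each of the 7 related genes except Uros (edgeR adjusted p = 0.0612) kept its call, and without CB-100 replicate 1 or 2 or sham replicate 3 none did (adjusted p of 0.0548 to 0.175). Without CB-100 replicate 3 Gstp1 (adjusted p = 0.0443) and Blvrb (0.044) were called, without sham replicate 1 Gstp1 (0.0375) was, and without sham replicate 2 Gstp1 (0.0475) and Cyb5a (0.0185) were.

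**Figure D5:**
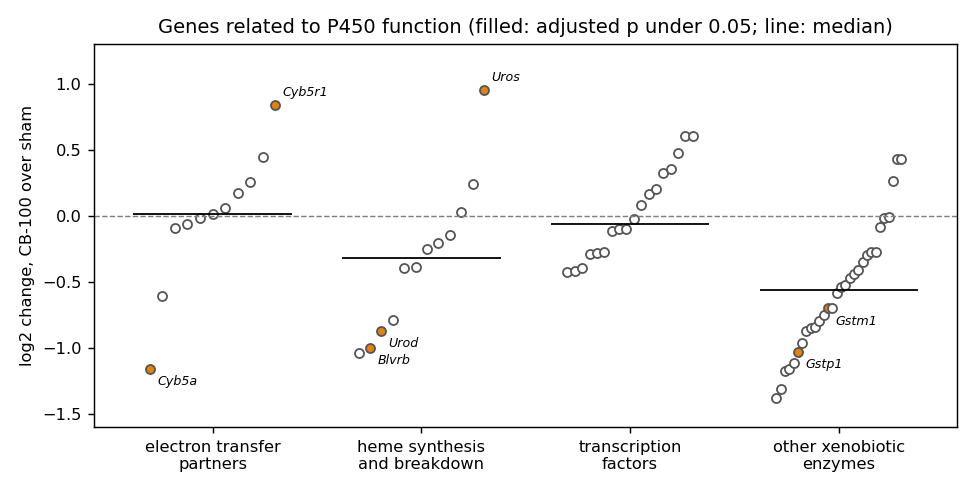
Estimated log2 change, CB-100 over sham (vertical axis), of each tested gene in 4 lists related to P450 function (horizontal axis), with a line at the list's median and filled points where the adjusted p was under 0.05. The electron partners centre near 0 (median 0.01), and 27 of the 30 other xenobiotic enzymes lie below 0 (median -0.56).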

How the data were processed

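By the labels' protocols, total RNA of brown adipose tissue (7 samples) was isolated with a kit for lipid-rich tissue. It was sequenced on an Illumina NovaSeq, and reads were aligned with STAR 2.7.9a to Ensembl release 101. featureCounts 2.0.3 and Salmon 1.5.2 also appear in the submitters' processing notes, without roles. Which library kit, strand setting and counting options applied is not given in the sources used here. As deposited by the authors, the values are expected counts of each gene, without normalization, and in part not whole, as where reads are divided between features. Of 55774 lines, 287 repeated an identifier with identical values and were removed. Of the 55487 genes, 99.5% matched GENCODE M21 (GRCm38) by identifier, which gave coordinates, exon lengths and overlapping genes.

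Expected counts were rounded, filtered with filterByExpr (minimum count 10), scaled by TMM (factors 0.755 to 1.25) and tested with edgeR 4.0.16 (robust quasi-likelihood fit, group as the only term, two-sided) in R 4.3.3. P-values were adjusted by Benjamini-Hochberg over all 16823 genes tested, with a threshold of 0.05. The biological coefficient of variation was 28%. SE is the size of the log2 change over the square root of F. CPM use the TMM-scaled totals of the unrounded values. The test was also run on simulated counts with known log2 changes, and no result here rests on that run. Intervals for low counts are exact conditional binomial intervals (scipy 1.17.1). Groups came from the treatment label. Nothing but separate sample names shows that replicates are separate mice, so p-values measure only the spread between these samples. Library totals were 10815101 to 28528471 counts.

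Named with values were Cyp2b10, every tested Cyp2 gene, every P450 gene that passed, the 8 members of other families with the highest mean CPM per kb, and in each related list the called genes or else those with the 2 smallest p, with Por, Nr1i3, Ahr and Alas1 always named. Cyp26b1, Cyp4f18, Cyp7b1, Cyp39a1, Cyp1a1, Cyp4a10 and Cyp4a31 were added after their values were seen. The members and lists were chosen with earlier results of these data known. Alternatives were DESeq2 size factors, upper quartile scaling, a filter at 1 CPM in 3 libraries or none, unrounded counts, nuclear protein-coding genes only, sex as covariate, a muscle marker score as covariate, females only, each library left out, DESeq2 1.42.0 and limma 3.58.1 voom with quality weights.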

Additional observations from a re-analysis of the deposited data

Results flagged for a closer look

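Of 37 P450 and related genes examined in the 4 CB-100 libraries, 3 had a library that stood apart from the rest of its group, and chance alone flags about 1 in 20 groups. Cyp4b1 in CB-100 replicate 4 was at 103 CPM, against 28.5 to 36.1 CPM in the other CB-100 libraries. Cyb5r1 in the same library was at 42.8 CPM, against 27.6 to 29.0 CPM in the others. Cyp4f18 in CB-100 replicate 1 was at 0.501 CPM, against 1.01 to 1.10 CPM in the others. CB-100 replicate 4 also had the largest total (28528471 counts), the largest mitochondrial share (36.3%) and the lowest TMM factor (0.755), whose part in these values was not tested.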

How the results depend on the processing

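With 3 or 4 libraries per group, the number of calls changed with the samples and the test. Over all genes edgeR called 622, and 8 to 610 with 1 library left out. It called 0 in females only, 9 when a score of skeletal muscle markers was added to the fit and 238 when sex was added. DESeq2 called 1968 and limma voom 1213. Each fit without a library also had fewer samples, so the influence of that library was not separated from the smaller sample size. P450 genes lower in CB-100 numbered 2, but 1 with sex and 0 with the muscle score as covariate or in females only, 5 by DESeq2, 4 by limma voom and 0 to 3 with 1 library left out. P450 genes higher numbered 0, also with any 1 library left out, and 1 by DESeq2 and by limma voom (Cyp26b1 in both). Related genes lower numbered 5, but 2 with sex, 0 with the muscle score, 0 in females only, 9 by DESeq2 and 0 to 7 with 1 library left out. Related genes higher numbered 2, but 0 with sex, with the muscle score or in females only, and 0 to 1 with 1 library left out. Cyp2b10 was lower under all 18 alternatives. It was not called with no filter (log2 change -3.79, adjusted p = 0.0996), with the muscle score (-3.69, adjusted p = 0.115) or in females only (-4.12, adjusted p = 0.168), and the range with 1 library left out was -4.20 to -3.13. Genes near 0 changed sign: Cyp2e1 in females only (0.065), Cyp4v3 without sham replicate 2 (0.025, range -0.50 to 0.025 with 1 library left out), Cyp7b1 with the muscle score (-0.21) and without sham replicate 2 (-0.039) or 3 (-0.082; range to 0.56), and Por with no filter (-0.014), by limma voom (-0.055) and without CB-100 replicate 1 (-0.018) or 4 (-0.037) or sham replicate 1 (-0.15; range to 0.13). The cause of these shifts was not tested. Of 697 alternative values, 570 kept direction and side of the threshold, 74 lost the call, 11 gained one, 32 moved and 10 reversed. No paired analysis was possible because the labels link no CB-100 sample to a sham sample, and the same replicate number in both groups marks no pair.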

Other observations

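Several P450 genes with a few counts each were seen in most libraries of both groups and were not described above. They were chosen after their values were seen and have no test. Their counts are sums over 4 CB-100 and 3 sham libraries, not scaled for depth. Cyp21a1, the adrenal steroid hydroxylase, had 42 counts in CB-100, 19 of them in replicate 4, and 16 in sham. It overlaps exons of the antisense gene Tnxa. Cyp2ab1 had 32 counts in CB-100 and 8 in sham, and Cyp46a1, the brain cholesterol hydroxylase, had 24 in CB-100 and 10 in sham. Cyp2t4 had 10 in CB-100 and 16 in sham, and overlaps exons of the antisense gene Egln2. Cyp11a1, which cuts the side chain of cholesterol, had 13 in CB-100 and 6 in sham, and overlaps Gm17322 on the same strand. The 7 markers of steroidogenic cells summed to 7.21 to 15.8 CPM in CB-100 and 8.86 to 11.1 CPM in sham, with Hsd3b1 at 0. Cyp19a1 (aromatase) and Cyp7a1, the rate-limiting enzyme of bile acid synthesis, were at 0 in all 7 libraries.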
